A study of Mus musculus with 18 samples.

Results

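MIN6 cells given the polyamine analogue DENSpm together with cytokines were compared with MIN6 cells given vehicle together with the same cytokines. MIN6 is an established mouse beta cell line, derived from an insulinoma of a transgenic mouse. The 6 libraries described here, of 18 in the series, were chosen by their labels. The DENSpm group with cytokines (3 libraries) had received 10 µM DENSpm and a mix of IFN-γ, TNF-α and IL-1β (the last at 25 ng/ml) for 24 h. The vehicle group with cytokines (3 libraries) had received vehicle and the same mix for 24 h, so that both groups carried the cytokines and differed by the drug. Set beside them at points below are 10 µM DENSpm alone, vehicle alone, and 5 mM DFMO with cytokines, each with 3 libraries after 24 h. The labels number the libraries of a group as biological replicates of this single line. The p-values therefore measure the spread between cultures of the line, not between animals.

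Polyamines (putrescine, spermidine and spermine) are small polycations that bind RNA and DNA and are needed for growth, and spermidine also serves to build hypusine, a modified lysine of the translation factor eIF5A. Ornithine decarboxylase makes putrescine, and aminopropyl groups taken from decarboxylated S-adenosylmethionine turn it into spermidine and spermine. DENSpm (N1,N11-diethylnorspermine) resembles spermine and induces spermidine/spermine acetyltransferase, which leads polyamines into breakdown and export, whereas DFMO blocks ornithine decarboxylase. Interferon gamma, tumour necrosis factor and interleukin 1 together are the usual laboratory model of the inflamed islet in type 1 diabetes, and act on beta cells through interferon signalling, through NF-kB and through stress pathways that can end in apoptosis.

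The deposited table had 24557 rows, each with a gene symbol. Library totals were 481712, 639625 and 454165 counts in DENSpm with cytokines, against 458477, 479241 and 463241 counts in vehicle with cytokines (two-sided exact permutation test, p = 0.6; 3 against 3 libraries cannot give a p under 0.1). DENSpm with cytokines 2 was the deepest of the 6. Rows with exons that lie across exons of a gene of the other strand held 83.2% to 84.7% of the counts in DENSpm with cytokines and 84.5% to 85.2% in vehicle with cytokines (exact p = 0.2). Rows of ribosomal protein genes, whose messenger RNAs are among the most abundant in any cell, held 0.101% to 0.166% and 0.0995% to 0.116% (exact p = 0.3). Reads thus appear to have been counted on the strand opposite to the one intended, and each row is named below with the gene whose exons lie opposite ("the row Gm15441, opposite Txnip"). On this reading a row that faces exons holds the stretch where they overlap; rows that face no gene held 9.55% of the counts of the series, and what they count is not settled by it. Levels are CPM, that is, counts taken relative to the scaled total of their library, and fold changes are log2 of DENSpm with cytokines over vehicle with cytokines, ± the standard error.

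Few rows passed an adjusted p of 0.05, and those that passed moved mostly by less than 2-fold. The declines of smallest adjusted p lay opposite Txnip, an inhibitor of thioredoxin, Srr, the enzyme that makes D-serine, Paqr3, a Golgi protein that tethers Raf kinases, and Khnyn, a ribonuclease-like antiviral cofactor in human cells. Rows opposite the stress genes Ddit3 and Gadd45a fell as well, and rows opposite the RNA helicase gene Ddx49 and the cytochrome oxidase assembly gene Cox20 rose. Of 3315 rows with enough counts to be tested, 44 passed an adjusted p of 0.05 (1.33%; edgeR quasi-likelihood test with Benjamini-Hochberg adjustment). Of these, 19 rose (0.573% of rows tested) and 25 fell (0.754%), and 16 did so at least 2-fold (0.483%), 10 upward and 6 downward. Before adjustment, 424 rows (12.8%) had a p under 0.05 by the same test. The 3 libraries of one group lay wholly above or below the 3 of the other in all 44 changed rows, and in 18.3% of all rows tested. The median log2 fold change of all rows was 0.01. Without library scaling factors, an alternative chosen after the data were seen, 41 rows rose and 25 fell.

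The 44 rows differ in how firmly they are called. Direction was the same for all 44 in each of 6 fits that left out 1 library, but only 6 passed the threshold in all 6 fits and 10 passed in none. The 6 were the rows opposite Txnip, Srr, Paqr3, Khnyn, Fip1l1 and Ddx49. The count of changed rows was 21 without each of the 3 DENSpm libraries with cytokines, and 12, 19 and 7 without vehicle with cytokines 1, 2 and 3. Rows that rose had a median level of 206.2 CPM, and rows that fell 656.6 CPM. Of the 44, 35 overlap an exon on the other strand, 3 overlap only the body of a gene there and 6 face no gene. Among tested rows these kinds were called in 1.71%, 1.09% and 0.632%.

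**Figure D1:**
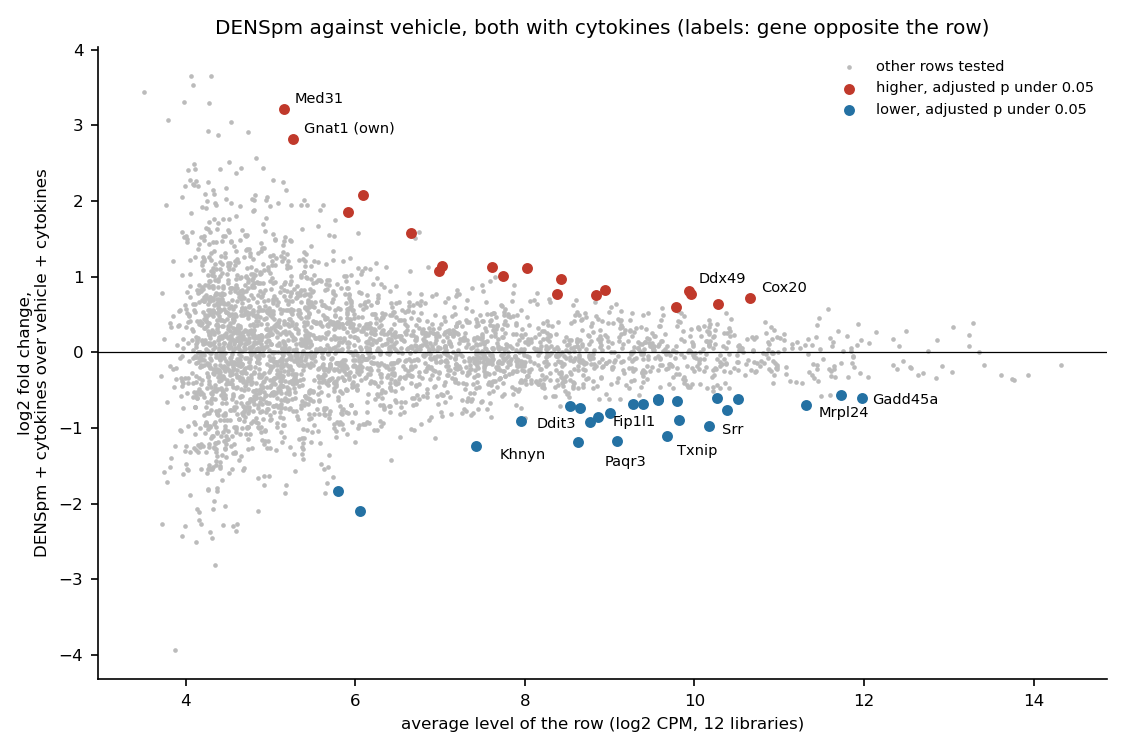
Each point is 1 of the 3315 rows tested: its average level over 12 libraries (log2 CPM, horizontal) and its log2 fold change, DENSpm with cytokines over vehicle with cytokines (vertical). The 19 rows that rose are in red, many of them at low levels, and the 25 rows that fell are in blue, most of them at higher levels. Labels give the gene opposite the row, or "own" where no gene lies opposite.

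Txnip encodes thioredoxin-interacting protein, which binds and inhibits thioredoxin, is strongly induced by glucose in beta cells and promotes their death. The row Gm15441 (gene ID 100038464, chromosome 3, 96555765 to 96566801, minus strand) shares 606 bp of exon with Txnip on the plus strand. It stood at 506, 618 and 800.3 CPM in DENSpm with cytokines, against 1393, 1188 and 1548 CPM in vehicle with cytokines. The highest library with the drug lay well under the lowest without it. The log2 fold change was -1.10 ± 0.17 (adjusted p = 2.9e-04 by edgeR), and leaving out each library in turn gave -1.28 to -0.98, each past the threshold. Txnip's own row held 6 counts over the 6 libraries, 0.216% of the 2773 counts of Gm15441.

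Ddit3 encodes CHOP, a transcription factor of the integrated stress response that drives apoptosis under lasting endoplasmic reticulum stress. The row Mars (chromosome 10, 127296221 to 127311786), named for methionyl-tRNA synthetase, overlaps the end of Ddit3 by 68 bp. It stood at 321, 365 and 345 CPM in DENSpm with cytokines, against 633, 512 and 803 CPM in vehicle with cytokines. The DENSpm libraries lay close together, and the vehicle libraries spread more widely above them. The fold change was -0.91 ± 0.18 (adjusted p = 0.0075). Without vehicle with cytokines 3, the highest library, it was -0.74 with an adjusted p of 0.109, and the other 5 fits without 1 library kept it past the threshold. The row of Ddit3 itself, opposite Mars, held more counts (2387 against 1378 over the 6 libraries), averaging 882 ± 74.6 CPM in DENSpm with cytokines and 796 ± 39.3 CPM in vehicle with cytokines (SD, n = 3 each), with a log2 fold change of 0.15 ± 0.14 (adjusted p = 0.74). The assignment of this pair therefore rests on 68 bp and on the strand reading.

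Gadd45a encodes a p53-responsive and stress-responsive protein that slows the cell cycle and takes part in DNA repair. The row E230016M11Rik (chromosome 6, 67036599 to 67080654, plus strand) overlaps 337 bp of its exons. It stood at 2038, 2707 and 3102 CPM in DENSpm with cytokines, against 3818, 3956 and 4156 CPM in vehicle with cytokines. All 3 DENSpm libraries were lower, with DENSpm with cytokines 1 lowest. The fold change was -0.61 ± 0.13 (adjusted p = 0.0148). Only the fits without DENSpm with cytokines 2 or 3 kept the call. Without DENSpm with cytokines 1 it was -0.48 (adjusted p = 0.122), and without vehicle with cytokines 1, 2 and 3 it was -0.63, -0.60 and -0.58 (adjusted p = 0.0552, 0.0611 and 0.112). The row of Gadd45a itself held 0.749% of the counts of E230016M11Rik.

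The sequences just before the starts of these genes are shown because their rows fell together and because each is a well studied stress-responsive promoter. They are the 250 bases ahead of the annotated start in RefSeq (GRCm38.p6), written on the gene's own strand: Txnip at chr3:96557707-96557956 (plus strand), Ddit3 at chr10:127290543-127290792 (plus strand) and Gadd45a at chr6:67037408-67037657 (minus strand). Capitals mark matches to 4 motifs, searched on both strands and chosen after the sequences were seen.
Txnip: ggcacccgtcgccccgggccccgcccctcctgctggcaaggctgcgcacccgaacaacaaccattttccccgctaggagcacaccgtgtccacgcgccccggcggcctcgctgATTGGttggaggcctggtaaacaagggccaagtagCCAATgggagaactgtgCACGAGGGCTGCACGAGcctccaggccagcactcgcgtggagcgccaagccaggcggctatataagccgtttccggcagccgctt
Ddit3: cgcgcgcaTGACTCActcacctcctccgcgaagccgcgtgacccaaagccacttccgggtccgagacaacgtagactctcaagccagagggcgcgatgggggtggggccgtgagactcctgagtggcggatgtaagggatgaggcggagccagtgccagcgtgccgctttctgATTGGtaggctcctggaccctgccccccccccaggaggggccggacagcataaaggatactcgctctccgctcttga
Gadd45a: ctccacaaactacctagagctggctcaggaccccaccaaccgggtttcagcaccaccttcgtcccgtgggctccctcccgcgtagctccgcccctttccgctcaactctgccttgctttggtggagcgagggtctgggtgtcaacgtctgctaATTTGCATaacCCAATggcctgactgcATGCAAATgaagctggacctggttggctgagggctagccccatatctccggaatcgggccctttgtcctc
In Txnip the capitals mark a pair of CACGNG motifs with 5 bases between them at -85 to -69, the paired E-box form of the carbohydrate response element bound by the glucose-sensing factors ChREBP and MondoA. That pattern stands in 0.0457% of 32851 mouse promoter windows searched in the same way. Ddit3 has an AP-1 motif, TGANTCA, at -242 to -236, found in 6.75% of the windows. Gadd45a has the octamer ATGCAAAT in both orientations, at -97 to -90 and -70 to -63, found in 1.6% of the windows. All 3 hold CCAAT on either strand, as do 33.9% of the windows. These matches describe the letters, and no binding was measured.

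Serine racemase, encoded by Srr, converts L-serine to D-serine, a co-agonist of NMDA receptors. The row Tsr1 (gene ID 104662, chromosome 11, 74898071 to 74909342), which shares 1240 bp with exons of Srr, stood at 757, 645 and 810 CPM in DENSpm with cytokines, against 1400, 1348 and 1588 CPM in vehicle with cytokines. The gap between the groups was wider than the range within either. The fold change was -0.97 ± 0.15 (adjusted p = 2.9e-04; -1.03 to -0.88 over the fits without 1 library, all past the threshold). Tsr1 and Srr run toward each other, and the row of Srr, which takes the opposite strand, held 16678 counts against 3006, with a fold change of -0.17 ± 0.12 (adjusted p = 0.61).

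Mat2a encodes the enzyme that makes S-adenosylmethionine, the methyl donor of the cell and, once decarboxylated, the source of the aminopropyl groups of spermidine and spermine. The row Particl (chromosome 6, 72439051 to 72440610), with 508 bp opposite Mat2a, stood at 422, 457 and 510 CPM in DENSpm with cytokines, against 610, 810 and 801 CPM in vehicle with cytokines. It was lower in all 3 DENSpm libraries, with the closest approach at vehicle with cytokines 1. The fold change was -0.68 ± 0.16 (adjusted p = 0.0289), and only the fit without vehicle with cytokines 1 kept it past the threshold (-0.80, adjusted p = 0.0459); in the other 5 fits the adjusted p was 0.0557 to 0.163. The row of Mat2a itself stood at -0.05 ± 0.21 (adjusted p = 0.96). The row Ccdc189, opposite Phkg2, the catalytic subunit of liver phosphorylase kinase, fell by 0.68 on the log2 scale (507 ± 126 CPM in DENSpm with cytokines and 807 ± 67.2 CPM in vehicle with cytokines; adjusted p = 0.0389). Its call held in 1 of the 6 fits, the one without DENSpm with cytokines 3.

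Among the other rows that fell was Lnx1. It lies opposite Fip1l1, which encodes a subunit of the factor that recognises the polyadenylation signal of pre-mRNA. Overlapping Fip1l1 by 466 bp, Lnx1 stood at 648, 608 and 562 CPM in DENSpm with cytokines, against 1140, 1010 and 1219 CPM in vehicle with cytokines (-0.89 ± 0.15, adjusted p = 0.0017). The highest DENSpm library lay well under the lowest vehicle library, and the call held in all 6 fits without 1 library.
Zc3h14 encodes a protein that binds poly(A) tails, and the row Eml5 opposite it averaged 2452 ± 360 CPM in DENSpm with cytokines and 3638 ± 217.7 CPM in vehicle with cytokines (-0.57 ± 0.13, adjusted p = 0.0232). The row Ccna2 lies opposite Exosc9, a subunit of the RNA exosome. It stood at 888, 1092 and 1218 CPM in DENSpm with cytokines, against 1581, 1627 and 1632 CPM in vehicle with cytokines (-0.60 ± 0.14, adjusted p = 0.0257). Named for cyclin A2, this row is among those whose transcript is uncertain, since the row Exosc9, opposite Ccna2, held more counts (13081 against 3747); Exosc9 stood at 0.08 ± 0.15 (adjusted p = 0.90). The row Rrnad1 lies opposite Mrpl24, a protein of the large mitochondrial ribosomal subunit, and also opposite Isg20l2, an exoribonuclease gene, and these cannot be told apart. It stood at 1837, 2225 and 2588 CPM in DENSpm with cytokines, against 3185, 3756 and 3797 CPM in vehicle with cytokines (-0.69 ± 0.14, adjusted p = 0.0103). All 3 of these rows were lower in every DENSpm library, but their calls did not hold throughout. The call of Rrnad1 was lost without DENSpm with cytokines 1 (adjusted p = 0.0889) and without vehicle with cytokines 2 or 3 (adjusted p = 0.0603 and 0.109). That of Ccna2 held only without DENSpm with cytokines 3 (adjusted p = 0.0201; 0.076 to 0.156 in the other 5 fits), and that of Eml5 held in 2 of the 6 fits.

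Paqr3 holds Raf kinases at the Golgi and thereby restrains signalling to ERK. The row Bmp2k (chromosome 5, 96997689 to 97091867), with 1185 bp opposite Paqr3, stood at 365, 272 and 352 CPM in DENSpm with cytokines, against 853, 676 and 689 CPM in vehicle with cytokines (-1.17 ± 0.17, adjusted p = 2.9e-04). Khnyn works with the antiviral zinc finger protein ZAP in human cells. The row Sdr39u1 (chromosome 14, 55897283 to 55900293), with 1195 bp opposite Khnyn, stood at 283, 287 and 288 CPM in DENSpm with cytokines, against 767, 553 and 640 CPM in vehicle with cytokines (-1.19 ± 0.18, adjusted p = 2.9e-04). In both rows the libraries did not overlap, and both calls held in every fit without 1 library. The row of Khnyn itself, opposite Sdr39u1, held more counts (10897 against 1294) and stood at 0.37 ± 0.13 (adjusted p = 0.19).
Brsk1 is an AMPK-related kinase known from neurons. The row Tmem150b opposite it averaged 946 ± 124.5 CPM in DENSpm with cytokines and 1597 ± 155.5 CPM in vehicle with cytokines (-0.76 ± 0.14, adjusted p = 0.0038). The call was lost without vehicle with cytokines 1 (-0.69, adjusted p = 0.0535).

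The remaining rows that fell covered several functions. The row Gmpr2 lies opposite Tinf2, a telomere-protecting shelterin subunit, and Nedd8, a ubiquitin-like modifier (-0.86). Ubr1 is a ubiquitin ligase that reads protein amino termini, and the row AV039307 opposite it stood at 633, 635 and 637 CPM in DENSpm with cytokines, against 902, 994 and 1046 CPM in vehicle with cytokines (-0.63 ± 0.14, adjusted p = 0.0197). That separation was clear, yet none of the fits without 1 library kept the call. The rows Ankzf1, opposite Glb1l and the autophagy gene Atg9a (-0.91), Tnk1, opposite the phospholipid scramblase gene Plscr3 (-0.73), Cog1, opposite Fam104a (-0.71), Angptl6, opposite A230050P20Rik (-0.64), Vps29, opposite Fam216a (-0.62), and Trmt13, opposite Lrrc39 and the centriole gene Sass6 (-0.61), fell as well. The rows 1110020A21Rik (-2.09), Galr2 (-1.24) and Ptov1 (-0.81) fell with no exon opposite. Galr2 encodes a receptor for the neuropeptide galanin, and its row stood at 71.7, 38.1 and 89.7 CPM in DENSpm with cytokines, against 183, 101 and 178 CPM in vehicle with cytokines. The row Med20 (-1.84) lies opposite Kpna2-ps, a pseudogene whose reads could be shared with its parent gene, so its identity is uncertain. Of the rows in this paragraph, the call of Gmpr2 held in 4 of the 6 fits without 1 library, that of Ptov1 in 3, those of 1110020A21Rik and Galr2 in 2, those of Ankzf1, Tnk1 and Vps29 in 1, and those of Cog1, Angptl6, Trmt13, AV039307 and Med20 in 0.

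**Figure D2:**
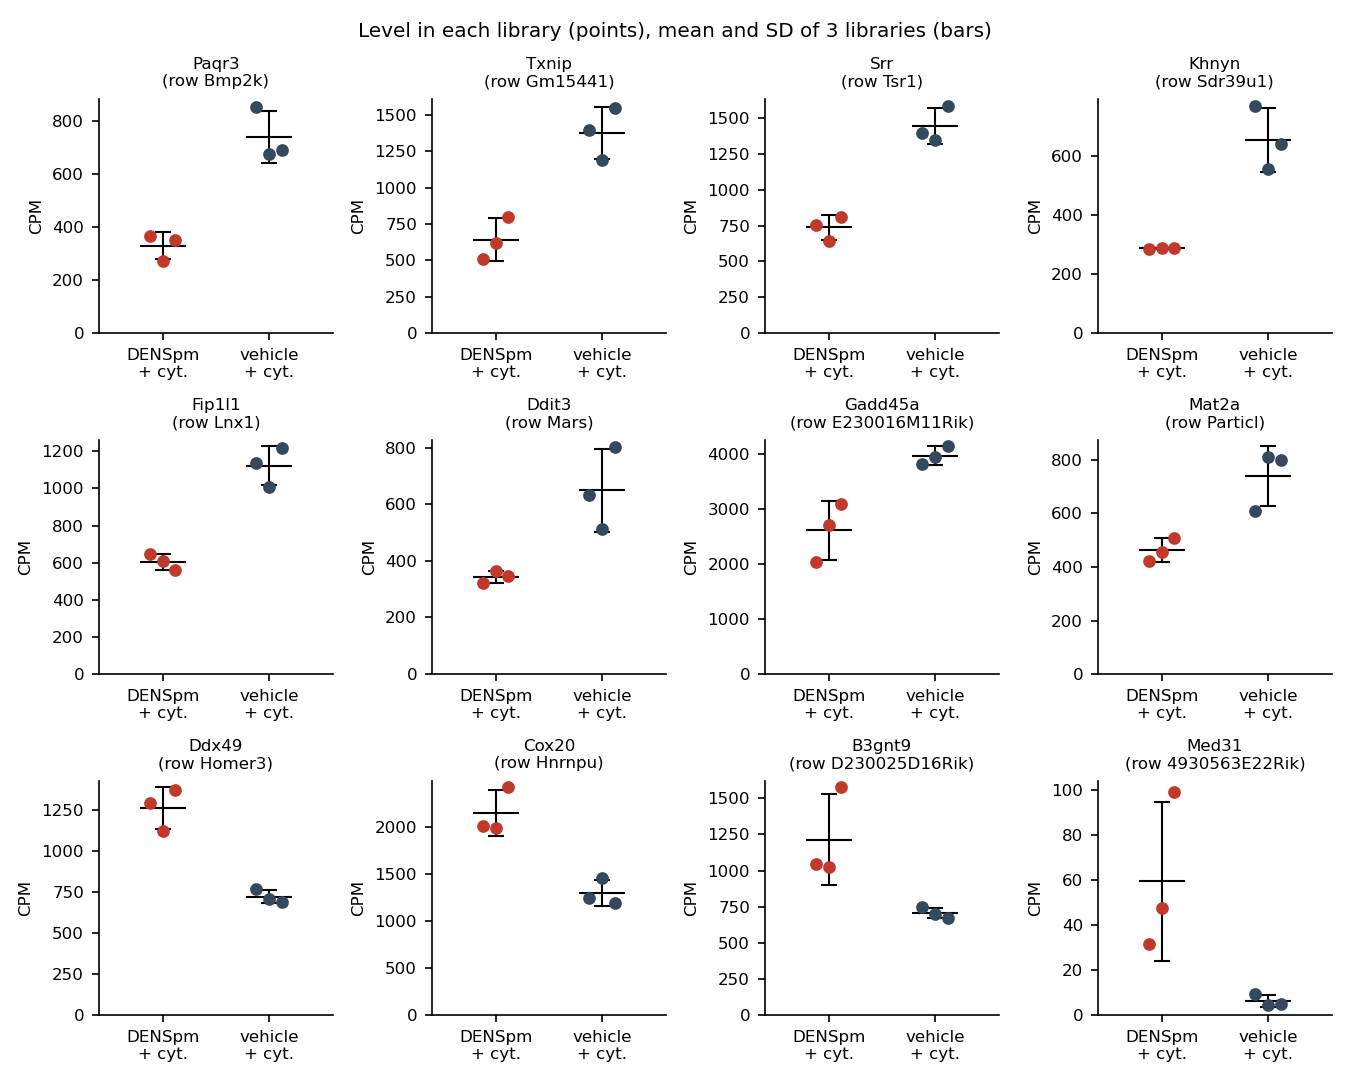
Level of 12 changed rows in each library (CPM, vertical), DENSpm with cytokines on the left of each panel and vehicle with cytokines on the right; points are libraries and bars the mean and SD of 3. Titles give the gene opposite and the row; in all 12 panels the groups do not overlap, 8 lower and 4 higher in DENSpm with cytokines.

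Among the rows that rose, the firmest lay opposite Ddx49, a DEAD-box RNA helicase. The row Homer3 (chromosome 8, 70282827 to 70294361), with 874 bp opposite Ddx49, stood at 1297, 1123 and 1376 CPM in DENSpm with cytokines, against 767, 707 and 691 CPM in vehicle with cytokines. Each DENSpm library was above every vehicle library. The fold change was 0.81 ± 0.14 (adjusted p = 0.0017; 0.75 to 0.89 over the fits without 1 library, all past the threshold).
Cox20 assists the assembly of cytochrome c oxidase. The row Hnrnpu, with 804 bp opposite Cox20, stood at 2015, 1993 and 2427 CPM in DENSpm with cytokines, against 1245, 1458 and 1193 CPM in vehicle with cytokines (0.72 ± 0.14, adjusted p = 0.0080). The call was lost without vehicle with cytokines 1 (0.70, adjusted p = 0.0607) and without vehicle with cytokines 3 (0.66, adjusted p = 0.109).
B3gnt9 belongs to the N-acetylglucosaminyltransferase family. The row D230025D16Rik opposite it stood at 1044, 1023 and 1575 CPM in DENSpm with cytokines, against 744, 700.2 and 675 CPM in vehicle with cytokines (0.78 ± 0.17, adjusted p = 0.0146). DENSpm with cytokines 3 was far above the other libraries, and without it the fold change was 0.56 (adjusted p = 0.139). The call was also lost without vehicle with cytokines 1, 2 or 3 (adjusted p = 0.0552, 0.0569 and 0.112), and so held in 2 of the 6 fits.

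The largest increases were in rows of low count. The row 4930563E22Rik, opposite Med31, a subunit of the Mediator complex that links transcription factors to RNA polymerase II, stood at 31.6, 47.6 and 99.2 CPM in DENSpm with cytokines, against 9.27, 4.39 and 4.67 CPM in vehicle with cytokines (3.22 ± 0.68, adjusted p = 0.0123). These levels rest on 87 and 8 counts, and the call was lost without DENSpm with cytokines 3 (2.67, adjusted p = 0.0982) and without vehicle with cytokines 2 or 3 (adjusted p = 0.0603 and 0.109).
The row of Gnat1, the rod transducin gene, with no gene opposite, rested on 67 counts in DENSpm with cytokines and 8 counts in vehicle with cytokines (2.82 ± 0.70, adjusted p = 0.0377), and no fit without 1 library kept its call. The row of Kcnmb1, a subunit of calcium-activated potassium channels, rested on 156 and 30 counts (2.08), 2900079G21Rik, opposite Arpp21, on 105 and 24 counts (1.85), and Slitrk5, a neuronal adhesion gene, on 221 and 65 counts (1.58). Their calls held in 2, 1 and 1 of the 6 fits without 1 library.

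Between these extremes, 11 further rows rose. Bhlhe40 is a transcriptional repressor tied to the circadian clock and to hypoxia, and the row 0610040F04Rik opposite it averaged 193 ± 46.1 CPM in DENSpm with cytokines and 86.8 ± 25.2 CPM in vehicle with cytokines (1.15 ± 0.29, adjusted p = 0.0436). Abca3 is a phospholipid transporter, and the row D330041H03Rik opposite it averaged 1358 ± 230.6 CPM in DENSpm with cytokines and 873 ± 15.2 CPM in vehicle with cytokines (0.63 ± 0.15, adjusted p = 0.0232). C1qtnf1 encodes a secreted C1q-related protein, and the row Gm11747 opposite it rose by 0.76. The others were Ntn3, opposite BC028777 (1.13), Faap24, opposite Rhpn2 (1.07), Mphosph8, opposite Gm16973 (1.01), Acot11, opposite Fam151a (0.82), and Slc43a2, opposite Gm45606 (0.77), with Nhsl1 (1.12), Pter (0.97) and D730005E14Rik (0.60) facing no exon. The row D730005E14Rik, on chromosome 15, stood at 1981, 1893 and 1948 CPM in DENSpm with cytokines, against 1449, 1073 and 1329 CPM in vehicle with cytokines (adjusted p = 0.0377). It averaged 129 ± 28.2 CPM in DENSpm alone and 112 ± 7.75 CPM in vehicle alone. Of these 11 rows, the call of Nhsl1 held in 4 of the 6 fits without 1 library, that of Pter in 2, those opposite Bhlhe40, Abca3, BC028777, Gm16973 and Fam151a in 1, and those opposite C1qtnf1, Rhpn2 and Gm45606 and that of D730005E14Rik in 0.

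For 32 of the changed rows the gene opposite has a row of its own. That row held fewer counts than the changed row in 25 and more in 7, with a median of 16.7%. Of the 25 own rows with enough counts to be tested, 0 passed an adjusted p of 0.05. The 7 in which it held more, and in which the transcript is thus least certain, were the rows opposite Srr, Khnyn, Exosc9, Ddit3, Fam104a, Gm16973 and Fam151a.

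Pathway lists were read in both ways, by the gene opposite and by the row's own symbol. By the edgeR fit used for calls, none of the cytokine-response lists had a member that passed the test, against 1.33% of all rows. At that share and with few rows tested per list, counts of 0 say little about these genes as a set. Of 64 interferon response genes, 5 were opposite a tested row (0 called, median log2 fold change -0.17, against 0.01 for all rows). A tested row of their own was found for 20 (0 called, median -0.13). By the gene opposite, 4 rows lay below 0 and 1 above, and by symbol 12 below and 8 above. The row Mir6381, opposite Gbp2, an interferon-induced GTPase, held 41870, 37230 and 34870 CPM in DENSpm with cytokines, against 45100, 41380 and 42050 CPM in vehicle with cytokines (-0.17 ± 0.14, adjusted p = 0.67). Only 24 bp support that overlap. The libraries of the groups overlapped there, as they did in the row Numa1, opposite the interleukin-18 inhibitor gene Il18bp (-0.15 ± 0.37, adjusted p = 0.93), and in Parp9, which faces Dtx3l, a ubiquitin ligase gene (0.08 ± 0.14, adjusted p = 0.88). The row 3110062M04Rik, opposite Tmem140, stood at 4502, 4753 and 5539 CPM in DENSpm with cytokines, against 6891, 7586 and 7439 CPM in vehicle with cytokines. Its groups did not overlap, but it did not pass the threshold in that fit (-0.57 ± 0.17, adjusted p = 0.0932). This result depended on the processing. The row passed with DESeq2 (adjusted p = 4.0e-04), only the 6 libraries (0.0046), halved counts (0.021) and no filter (0.034). It did not pass with median-ratio factors, a stricter filter, a replicate block, all 18 libraries or no scaling factors (adjusted p 0.067 to 0.113). No fit without 1 library called it. The rows Cxcl9, Dtx3l (opposite Parp9) and Gbp7 were also lower in every DENSpm library than in any vehicle library. They were not called (adjusted p = 0.38, 0.39 and 0.46 by edgeR), and groups did not overlap in 18.3% of all rows tested.
Antigen presentation genes gave 0 called of 7 rows by the gene opposite (median -0.18) and 0 of 15 by symbol (median -0.16). By the gene opposite 6 lay below 0 and 1 above, and by symbol 11 below and 4 above. The rows H2-Q4, H2-T22, Tapbp and Emc9 (opposite Psme1) were lower in every DENSpm library, and none was called (adjusted p = 0.41, 0.50, 0.61 and 0.29 by edgeR). NF-kB genes gave 0 called of 3 rows by the gene opposite and 0 of 5 by symbol. The row Psd, opposite Nfkb2, the precursor of the p52 subunit, stood at 3407, 2834 and 3244 CPM in DENSpm with cytokines, against 3004, 2691 and 3115 CPM in vehicle with cytokines (0.11 ± 0.14, adjusted p = 0.83).

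Beta cell genes showed no called row either, with 0 of 11 rows by the gene opposite (median -0.30) and 0 of 27 by symbol (median 0.09). Of all rows 1.33% were called, so these counts of 0 say little about beta cell genes as a set. The rows Pcsk2os1 and Pcsk2os2 lie opposite Pcsk2, the convertase that processes proinsulin. Pcsk2os1 stood at 9000, 9642 and 11700 CPM in DENSpm with cytokines, against 11760, 14000 and 13250 CPM in vehicle with cytokines (-0.36 ± 0.15, adjusted p = 0.26). All 3 DENSpm libraries were lower, the highest only just, and the difference did not pass. Pcsk2os2 stood at 8086, 9335 and 12480 CPM in DENSpm with cytokines, against 11770, 13540 and 12610 CPM in vehicle with cytokines (-0.35 ± 0.15, adjusted p = 0.31). Its groups overlapped. The row Nkx2-2os, opposite the islet transcription factor gene Nkx2-2, stood at -0.31 ± 0.14 (adjusted p = 0.34). Read by their own symbol, 16 of the 27 rows had a fold change above 0, where the median of all rows was 0.01. Chga, which encodes chromogranin A and has no gene opposite, stood at 899, 1056 and 984.5 CPM in DENSpm with cytokines, against 795, 678 and 570 CPM in vehicle with cytokines (0.53 ± 0.15, adjusted p = 0.0744). Iapp, the amylin gene, stood at 0.78 ± 0.28 (adjusted p = 0.18) and Ins2, an insulin gene, at 0.78 ± 0.42 (adjusted p = 0.46), whereas the granin genes Scg2 and Scg3 stood at -0.29 and -0.32 (adjusted p = 0.77 and 0.84).
The row of Ins1, the other insulin gene, held only 4 counts in DENSpm with cytokines and 14 counts in vehicle with cytokines, Mafa 3 and 7, Slc2a2 3 and 0, and Ucn3 0 in both. Markers of acinar, duct, mesenchymal, endothelial and blood cells were at 0 in both groups except Cpa1 (2 and 0 counts) and Pecam1 (0 and 2 counts). The alpha cell gene Gcg held 22 counts in DENSpm with cytokines and 4 counts in vehicle with cytokines, Ghrl 40 and 13, and Sst 1 and 2, and Hhex and Ppy were at 0. On the strand reading a row need not count its own gene, and the rows of the beta cell genes Ins1, Mafa and Slc2a2 were near 0 as well. Counts near 0 in these rows therefore cannot show that other cells were absent. The part of other cells in the results was not tested, and in bulk RNA fewer cells of a type and less RNA per cell cannot be told apart.

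Genes of polyamine metabolism were mostly too low to test. By the gene opposite, 2 rows were tested and 1 fell (Particl, opposite Mat2a, above). By symbol, 0 of 8 tested rows were called. The row Arg2, named for the arginase that makes ornithine, lies opposite Vti1b. It stood at 71.7, 79.4 and 85.0 CPM in DENSpm with cytokines, against 139, 171 and 145 CPM in vehicle with cytokines (-0.95 ± 0.28, adjusted p = 0.0943). Its groups did not overlap, and the difference did not pass. On the strand reading this row would count Vti1b. The row Vti1b, opposite Arg2, stood at -0.31 ± 0.84 (adjusted p = 0.93). The row of Odc1, ornithine decarboxylase, held 13 counts in DENSpm with cytokines and 20 counts in vehicle with cytokines, and that of Sat1, the acetyltransferase induced by DENSpm, 10 and 12 counts, with no exon of another gene opposite either of them. The rows of Smox, Amd1 and Oaz1 held 0 counts in both. Differences in these genes were not detectable at this depth and on this strand.

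Of integrated stress response genes, both of the 2 rows tested by the gene opposite fell (Ddit3, assigned by 68 bp, and Gadd45a, above; 0.754% of all rows fell), and 0 of 20 by symbol were called (median 0.06). Read by symbol, Atf5, whose row lies opposite Il4i1, stood at 0.45 ± 0.17 (adjusted p = 0.22). Slc3a2 stood at -0.92 ± 0.40 (adjusted p = 0.31) and Atf4 at -0.81 ± 0.78 (adjusted p = 0.75). Of glucose-responsive and glycolytic genes, 1 of 4 by the gene opposite fell (Txnip) and 0 of 10 by symbol were called. In other lists 1 row each was called: Mrpl24 among 13 mitochondrial translation rows by the gene opposite (median of the 13 rows 0.22), Exosc9 among 13 ribosome biogenesis rows by the gene opposite, and the rows Tsr1, Ccna2, Mars and Vps29, lower, and Hnrnpu, higher, by symbol. Of RNA processing and splicing genes, 0 of 12 rows by the gene opposite were called (median 0.06). Lists of endoplasmic reticulum chaperones, p53 targets, DNA replication, lipid synthesis, redox, oxidative phosphorylation, lysosome and chromatin genes had 0 called rows in either reading. No list but the integrated stress response list, with 2 rows tested by the gene opposite, had more than 1 called row in either reading.

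**Figure D3:**
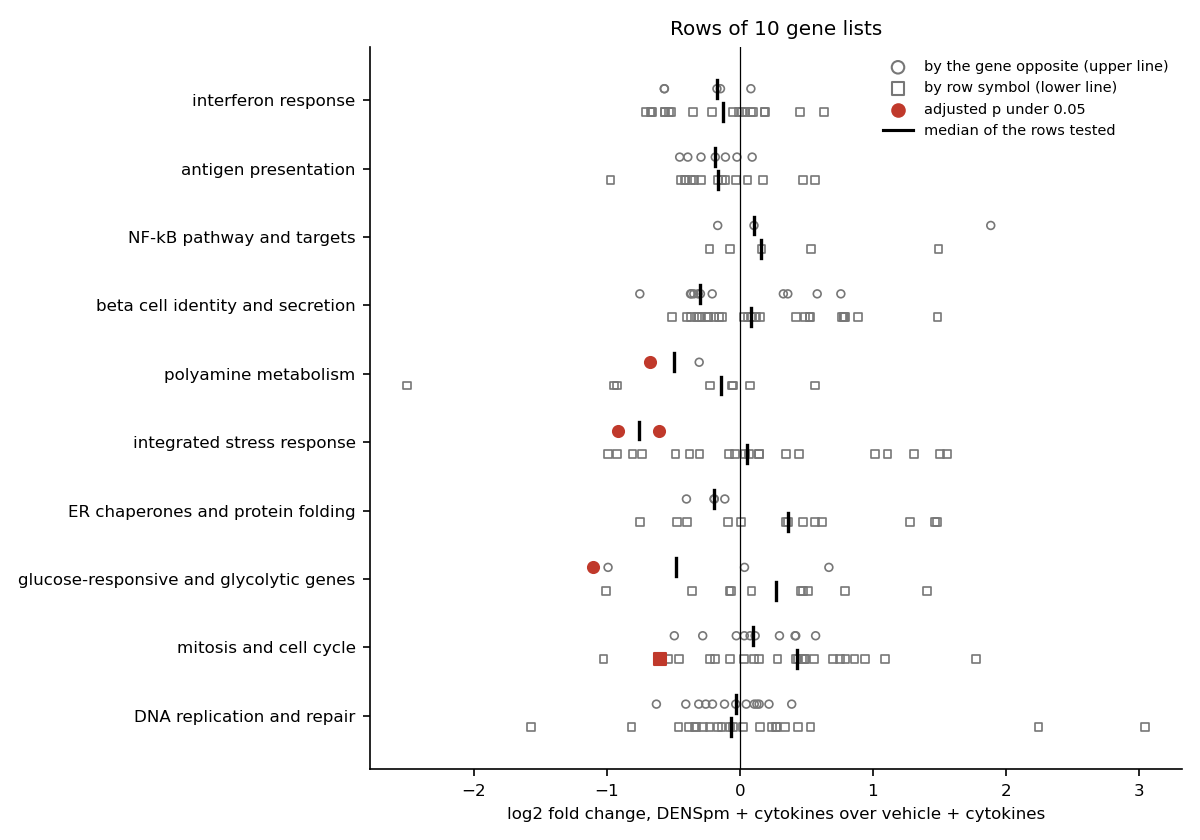
Log2 fold change (horizontal) of each tested row of 10 gene lists, read by the gene opposite (circles, upper line) or by the row's symbol (squares, lower line). Filled red marks are the called rows, and black bars the median of each line; the interferon, antigen presentation, NF-kB and beta cell lists hold no filled mark.

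The same drug was compared in cells without cytokines, to ask whether its effect differed where cytokines were present. No library is shared between these comparisons, although they share the estimate of spread. Without cytokines, DENSpm changed 18 of 3315 rows (0.543%), 11 higher (0.332%) and 7 lower (0.211%). That count is unstable, at 4 in a fit of only these 6 libraries, 3, 32 and 28 without DENSpm 1, 2 and 3, and 2, 3 and 4 without vehicle 1, 2 and 3, and the overlap below rests on it. Of the 44 rows changed with cytokines, 43 had the same sign without them, against 60.8% of all rows tested. Of these 43, 25 also had an unadjusted p under 0.05 without cytokines by edgeR. Among all 3315 rows, 371 had such a p, whatever their sign. In all, 6 rows were called in both, which is 13.6% of the 44 and 33.3% of the 18. They lay opposite Txnip, Srr, Mrpl24, Fam216a, Ddx49 and BC028777. Across the 673 rows of at least 8 log2 CPM the fold changes had a Pearson r of 0.62, and across all 3315 rows 0.18, where rows are not independent and most have few counts.

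A test of the difference between the effects called 0 of 3315 rows (0%) by edgeR and 0 by DESeq2. In edgeR, 169 of the 3315 rows had an unadjusted p under 0.05, and the smallest adjusted p was 0.445. That number is near the one such a threshold yields where no effect differs. Among the 44, the effect was larger with cytokines in 41, a count that their choice favours, and the smallest adjusted p of the difference was 0.88. Txnip's row fell in both settings. It averaged 641 ± 148 CPM in DENSpm with cytokines and 1376 ± 181 CPM in vehicle with cytokines, and 330.2 ± 58.5 CPM in DENSpm alone and 870.3 ± 83.1 CPM in vehicle alone. The row opposite Srr averaged 737 ± 84.4 CPM and 1445 ± 126 CPM in the same pair with cytokines, and 722 ± 129 CPM in DENSpm alone and 1648 ± 133 CPM in vehicle alone.
Rows opposite Ddit3, Khnyn and Gadd45a were called only with cytokines. The row opposite Ddit3 averaged 344 ± 22.3 CPM in DENSpm with cytokines and 649 ± 147 CPM in vehicle with cytokines, and 334 ± 36.8 CPM in DENSpm alone and 390.3 ± 41.7 CPM in vehicle alone. Its fold change was -0.91 with cytokines and -0.21 without (unadjusted p of the difference 0.0097). The row of Ddit3 itself, on the other strand of this pair, rose without cytokines (0.63 ± 0.14, adjusted p = 0.0324) and was not called with them (0.15; unadjusted p of the difference 0.022). The row opposite Khnyn stood at -1.19 with cytokines and -0.31 without (unadjusted p of the difference 0.0018), and the row opposite Gadd45a at -0.61 and -0.10 (unadjusted p 0.01). The last averaged 4496 ± 267 CPM in DENSpm alone and 4851 ± 112 CPM in vehicle alone. None of these differences passed adjustment over all rows, so a different effect with cytokines is not shown.

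**Figure D4:**
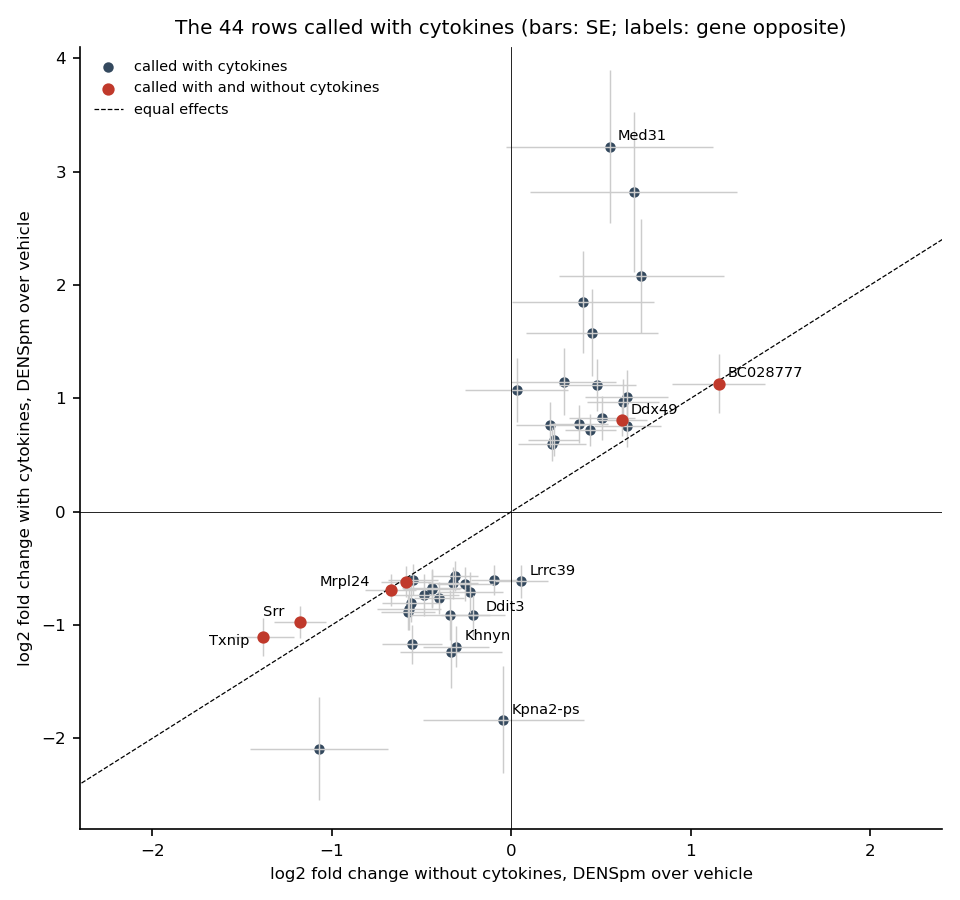
Log2 fold change of the 44 changed rows without cytokines (horizontal) and with cytokines (vertical), DENSpm over vehicle in each; bars are standard errors, and the dashed line marks equal effects. The 6 rows called in both are in red, and 43 of the 44 lie in the lower left or upper right part; labels give the gene opposite.

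DENSpm and DFMO, which lower polyamines by different routes, were set against each other with cytokines in a fit of all 18 libraries. Of 3713 rows, 377 differed (10.2%), 199 higher (5.36%) and 178 lower (4.79%) in DENSpm with cytokines. This comparison shares the 3 DENSpm libraries with the comparison above. Among the 6 increases of smallest p, the row Ints8, opposite Ccne2, which encodes cyclin E2, averaged 5565 ± 852 CPM in DENSpm with cytokines and 2094 ± 294 CPM in DFMO with cytokines (1.41 ± 0.14, adjusted p = 1.2e-09). Against vehicle with cytokines (6655 ± 145 CPM) it stood at -0.26 ± 0.15 (adjusted p = 0.49). The row Lcorl, opposite the condensin subunit gene Ncapg, was 1.21 higher on the log2 scale than with DFMO, Nusap1, opposite the centromere gene Oip5, 1.98 higher, Lrrc41, opposite the recombination gene Rad54l, 1.84 higher, Fam69a, opposite the ribosomal protein gene Rpl5, 1.34 higher, and Rufy2, opposite the splicing gene Hnrnph3, 0.98 higher (adjusted p at most 1.6e-08). In none of these 5 did DENSpm with cytokines differ from vehicle with cytokines by the test (log2 fold changes 0.12, 0.42, 0.11, 0.00 and 0.23).
Rows lower in DENSpm with cytokines than in DFMO with cytokines included 3110062M04Rik, opposite Tmem140 (4931 ± 541 CPM and 14030 ± 489 CPM; -1.51 ± 0.17, adjusted p = 2.8e-08), P2ry6, a receptor for the nucleotide UDP (-1.27), Rbbp4, opposite Sync and Gm26722 (-1.80), and Asph, opposite Clvs1 (-1.14).

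For the rows described above, the drugs stood as follows with cytokines. The row opposite Srr averaged 737 ± 84.4 CPM in DENSpm with cytokines, 1465 ± 70.5 CPM in DFMO with cytokines and 1445 ± 126 CPM in vehicle with cytokines (DENSpm against DFMO -0.99 ± 0.14, adjusted p = 9.2e-07). The row opposite Khnyn averaged 286 ± 2.92, 646 ± 84.5 and 653 ± 108 CPM in the same order (DENSpm against DFMO -1.17, adjusted p = 3.4e-06). In these rows DENSpm stood apart from DFMO. The row opposite Txnip averaged 641 ± 148, 827 ± 84.1 and 1376 ± 181 CPM (-0.37, adjusted p = 0.16), that opposite Ddit3 344 ± 22.3, 434.5 ± 35.7 and 649 ± 147 CPM (-0.34, adjusted p = 0.26), and that opposite Gadd45a 2616 ± 538, 2277 ± 140 and 3977 ± 170 CPM (0.20, adjusted p = 0.36). In these 3 rows the difference between the drugs did not pass the test, which does not show that they act alike. D730005E14Rik averaged 1940 ± 44.5, 1123 ± 133 and 1284 ± 192 CPM (DENSpm against DFMO 0.79, adjusted p = 1.2e-04).

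**Figure D5:**
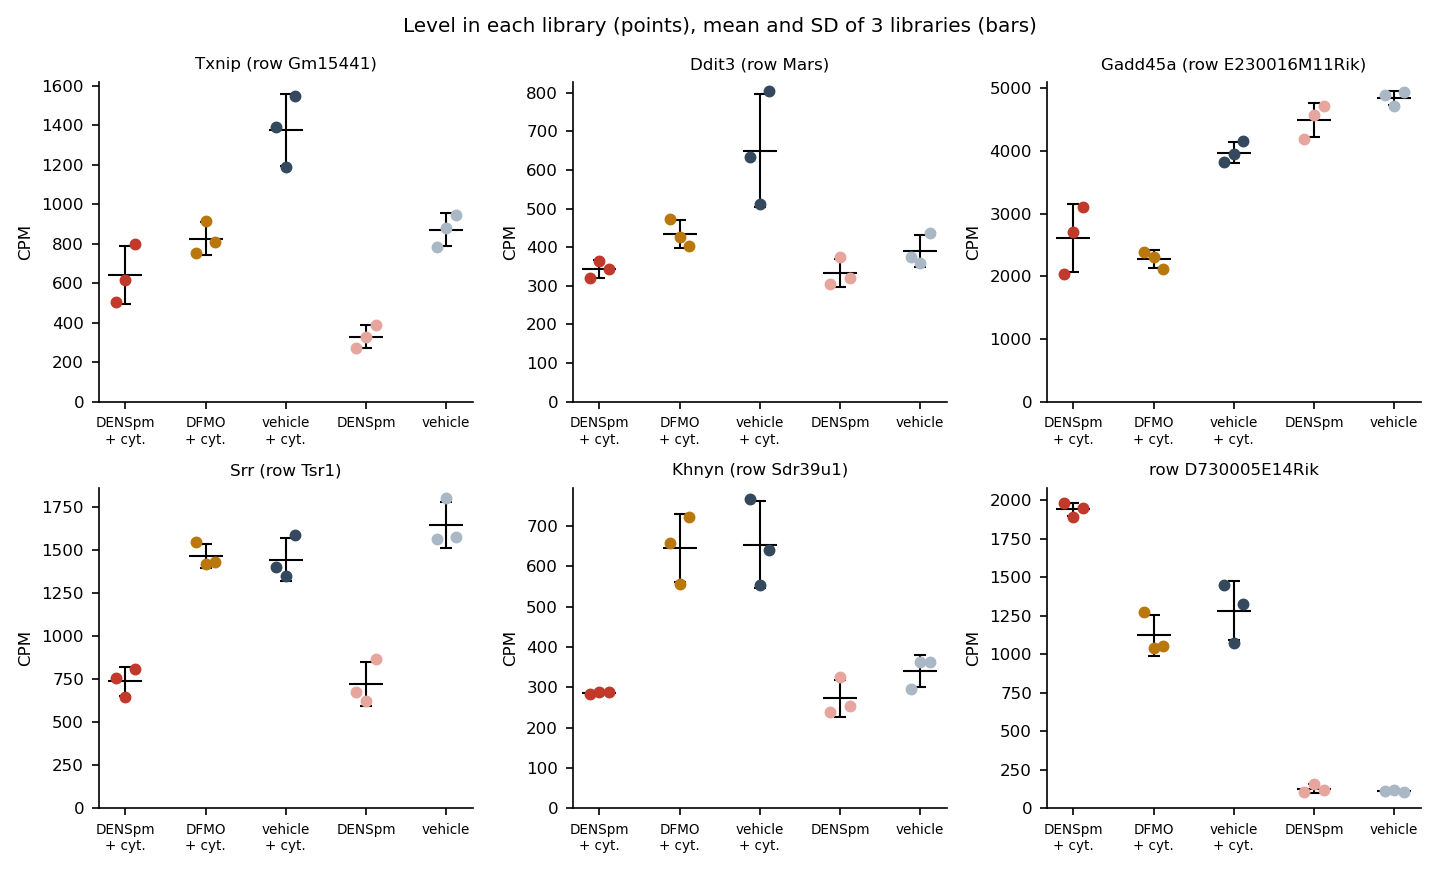
Level of 6 rows in each library (CPM, vertical) of 5 groups: DENSpm, DFMO and vehicle with cytokines, then DENSpm and vehicle alone; points are libraries and bars the mean and SD of 3. The rows opposite Srr and Khnyn are low in DENSpm with cytokines and not in DFMO with cytokines, while the rows opposite Txnip, Ddit3 and Gadd45a are below vehicle with cytokines in both.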

How the data were processed

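Per the labels' protocols, the libraries came from poly(A) RNA, kept the strand (TruSeq) and were run on a NovaSeq. The deposited values used here are raw counts of reads per gene, for which the submitters' processing notes name HTSeq, FastQC, DESeq2 and the mm10 build. Aligner, annotation and strand setting: not given in the sources used here. Deposited normalised tables were not used. Counts of 2 (24598 cells of the table) outnumbered counts of 1 (15440), so halved counts were an alternative.

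Date conversion had altered 26 symbols, which were repaired. Rows were matched to GENCODE M21 (GRCm38) for exons on the other strand (24234 of 24557 matched). The 12 libraries of the DENSpm table were fitted with edgeR 4.0.16 in R 4.3.3 (quasi-likelihood F test, robust, TMM factors, filterByExpr, a mean per group), which tested 3315 rows holding 96.6% of the counts. The biological coefficient of variation was 0.296. P-values were adjusted by Benjamini-Hochberg over all rows tested, and rows with an adjusted p under 0.05 are called. DESeq2 1.42.0 was an alternative. On simulated data with known changes (3023 rows tested) the fit recovered 2.22% of rows raised 1.5-fold, 18.4% raised 2-fold, 93.8% raised 4-fold and 19.1% of those lowered to 0.5. False calls made up 5.88%. The simulation gave all rows the same coefficient of variation, 0.296, whereas in the data the spread differs by row. Recovery in rows of smaller spread, such as those with many counts, is thus not given by it. CPM use TMM factors of an 18-library fit. Levels and counts cover counting error and the spread of 3 libraries per group only.

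The members, the gene lists and the rules were chosen with earlier results of these data known. The rule named the 14 called rows of largest change in each direction with at least 5 CPM and groups that do not overlap, called rows of each list, and a set of fixed genes; the other called rows were added after their values were seen.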

Additional observations from a re-analysis of the deposited data

Results flagged for a closer look

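The row of Chga, the chromogranin A gene, was marked because the effect of DENSpm differed with and without cytokines at an unadjusted p. Its log2 fold change was 0.53 ± 0.15 with cytokines and -0.21 ± 0.15 without, a difference of 0.735 (unadjusted p = 0.0015, adjusted p = 0.88 by edgeR over 3315 rows). It averaged 979.7 ± 78.7 CPM in DENSpm with cytokines and 681 ± 113 CPM in vehicle with cytokines, and 901 ± 65.3 CPM in DENSpm alone and 1052 ± 90.6 CPM in vehicle alone. With cytokines, all 3 DENSpm libraries were higher than the 3 vehicle libraries. Neither single effect passed an adjusted p of 0.05 in the 12-library fit. The effect with cytokines passed with DESeq2 (adjusted p = 0.025), only the 6 libraries (0.046), all 18 libraries (0.044) and no scaling factors (0.042). It did not pass with median-ratio factors, no filter, a stricter filter, halved counts or a replicate block (adjusted p 0.0505 to 0.148).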

How the results depend on the processing

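Of the comparison of DENSpm with vehicle, both with cytokines, the 44 calls became 99 with DESeq2, 67 on halved counts and 74 in a fit of only the 6 libraries, and DESeq2 and halved counts kept all 44 among theirs, the 6-library fit 43. Leaving out 1 library gave 7 to 21 calls. With median-ratio factors there were 43 calls, with no filter 38, with a stricter filter 40, with all 18 libraries 57 and, added after the data were seen, without scaling factors 66. No fold change of the 44 rows turned its sign under these alternatives. Without a filter, 14 of the 44 lost their call. With a replicate block there were 40 calls, 39 of them among the 44. Deviations of same-numbered libraries correlated at -0.08 to 0.09, and those of other pairs at -0.09 to 0.09. Most rows have few counts, so such correlations cannot settle whether the numbers pair samples. DENSpm against vehicle without cytokines gave 18 calls, 47 with DESeq2, 30 with no filter, 31 on halved counts, 4 in a fit of only its 6 libraries, 23 with the replicate block and 2 to 32 without 1 library. The difference of the effects gave 0 calls in each of these fits, and DENSpm against DFMO with cytokines 377, within 1.5 times of that in each. Causes were not tested. In the simulated data, where all rows had the same spread, few 2-fold changes were recovered. A row that was not called is therefore not shown to be unchanged. The part of depth in that recovery was not tested.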

Other observations

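The rows with the smallest unadjusted p for a different effect of DENSpm with and without cytokines were Adck5, opposite the cleavage factor gene Cpsf1 (difference -2.51 ± 0.57, adjusted p = 0.445), Myh7b, opposite Trpc4ap (-2.08 ± 0.53, adjusted p = 0.88), and Bsg, the basigin gene with no exon opposite (3.14 ± 0.86, adjusted p = 0.88). Adck5 overlaps Cpsf1 by only 14 bp, and none of the differences passed adjustment. Without cytokines the row Dnah11, opposite Cdca7l, rose with DENSpm by 0.64 ± 0.14 (adjusted p = 0.0324 by edgeR). With cytokines it stood at 0.49 (adjusted p = 0.079), at 1162, 1226 and 1341 CPM in the DENSpm libraries with cytokines. The row 4933408J17Rik, opposite the spliceosomal Sm protein gene Snrpf, fell without cytokines by 0.61 on the log2 scale (adjusted p = 0.0406) and stood at -0.47 with them (adjusted p = 0.11).

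The row Bak1, named for a pro-apoptotic BCL2 family gene and opposite Ggnbp1, stood at 46.4, 34.9 and 89.7 CPM in DENSpm with cytokines, against 9.27, 19.8 and 14 CPM in vehicle with cytokines (1.95 ± 0.54, adjusted p = 0.0664), and at 0.05 without cytokines. It was chosen after its values were seen.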
